A study of Homo sapiens with 12 samples.

Results

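The nuclear cyclophilins other than PPIL3 described here are PPIH, PPIE, PPIL1, PPIL2, CWC27, PPWD1, PPIG, NKTR, PPIL4 and PPIL6. They were picked by gene symbol alone, as every transcript cluster and every exon or junction probe set that lists one of these 10 symbols, also where the annotation lists another gene beside it. This gave 10 of 67528 transcript clusters, 1 for each gene, and 492 of 913055 probe sets, of which 293 lie in exons (names starting with PSR) and 199 span exon junctions (names starting with JUC). A transcript cluster is the array's gene-level unit, and a probe set is a small group of probes in 1 exon or across 1 junction.

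The comparison was between HEK293T cells depleted of PPIL3 and HEK293T cells with a scrambled hairpin (SCR). HEK293T derives from human embryonic kidney and expresses large T antigen of SV40. Both lines received a lentiviral short hairpin RNA, from the MISSION library for PPIL3 and scrambled for SCR, and both were selected with puromycin. Human Transcriptome Arrays 2.0 from Affymetrix were hybridized with total RNA, 3 arrays for the PPIL3 knockdown and 3 for SCR. Each arm is 1 stable line, so an effect of the hairpin and a property of its line cannot be told apart. The sample titles and source names also number the PPIL3 hairpin differently. Nothing in the labels ties the replicates to separate transductions, and the p-values therefore measure only the spread between these arrays. All signals below are log2 values, and every difference is PPIL3 knockdown minus SCR.

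Cyclophilins are peptidyl prolyl isomerases, which turn the peptide bond before a proline between its cis and trans forms. Several of them are built into the spliceosome, the RNA and protein machine that removes introns, and join it at different steps of its assembly, activation and catalysis. Many, spliceosomal ones included, pair the isomerase domain with an RNA-binding domain, WD repeats, a U-box or a long arginine and serine rich tail, and some have lost isomerase activity.

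PPIL3 itself, measured as the check of the labels, gave gene-level signals of 7.30, 7.26 and 7.28 in the knockdown arrays, against 7.75, 7.81 and 7.81 in the SCR arrays. The groups did not overlap, and PPIL3 fell by 0.51 (SE 0.030, 95% interval -0.58 to -0.44), a change of -29.8% (limma adjusted p = 0.0061 over 22516 clusters). The adjusted p was 0.058 with the replicate number as a block, 0.054 without knockdown array 3, 0.065 without SCR array 2 and 0.098 without SCR array 3. The PPIL3 difference was -0.74 with the mean of its exon probe sets as the level (limma adjusted p = 3.7e-05) and -1.29 with the median one (limma adjusted p = 0.00034). Over all clusters 127 were called at an adjusted p under 0.05, 99 higher and 28 lower, but 2 with the replicate block and between 1 and 20 when any 1 of the 6 arrays was left out. Of 9 clusters for HEK293T markers (NEFM, NEFL, KRT8, KRT18, VIM, PAX2 and LHX1), all had means over the 6 arrays between 7.72 and 10.88. The groups were furthest apart for NEFM, with means of 8.84 in the knockdown and 8.14 in SCR. The 5 clusters for markers of other cell types ran from 4.18 for the leukocyte gene PTPRC to 8.20 for the collagen gene COL1A1. COL1A1 lay above the HEK293T marker PAX2, so the lists overlapped, and the reason was not tested. The array medians were 6.63 to 6.67.

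None of the 10 nuclear cyclophilins passed the gene-level test. The limma count was 0 of 10, beside 0.564% of all clusters, and 2 of 10 (PPIL2 and PPIL6) had an unadjusted p under 0.05, beside 15.3% of all clusters. Knockdown and SCR values did not overlap for 1 of 10 (PPIL2), beside 20.4% of all clusters. The median difference of the 10 was 0.0097, with 5 above 0 and 5 below, and the median over all clusters was -0.0065. None of the 10 intervals (95%) of the gene-level values reached beyond 0.25 in either direction. With the mean of the exon probe sets as the level, that of PPIL6 reached 0.346.

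**Figure D1:**
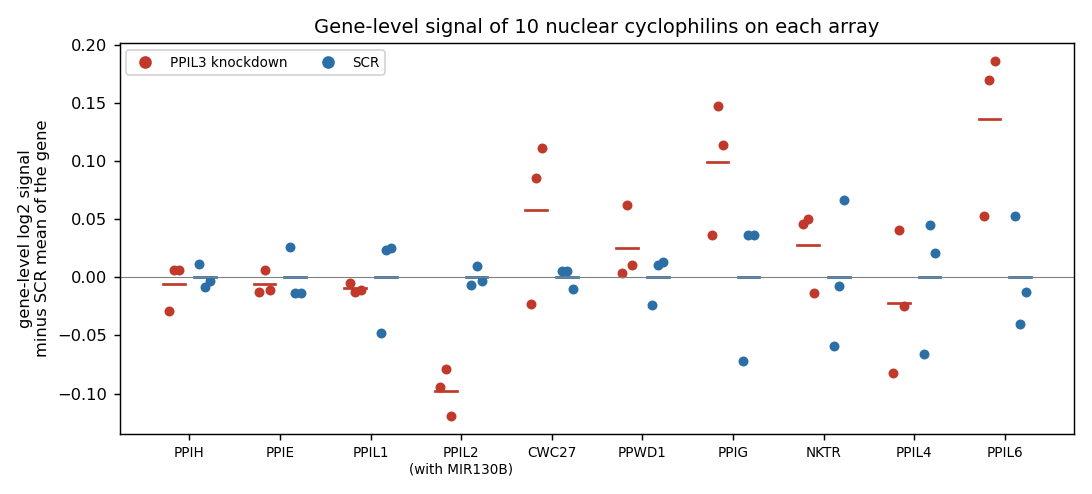
Gene-level log2 signal of each nuclear cyclophilin on each array, minus the SCR mean of that gene (vertical axis), with the 3 PPIL3 knockdown arrays left of the 3 SCR arrays and a bar at each group mean. Only the PPIL2 groups do not overlap. For PPIG and for PPIL6, 1 knockdown array lies at the level of the top SCR value.

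PPIH, a subunit of the U4/U6 small nuclear ribonucleoprotein that binds PRPF4, had close gene-level signals on all arrays. They were 8.71, 8.74 and 8.74 in the knockdown arrays, against 8.75, 8.73 and 8.73 in SCR. The groups overlapped, and the difference was -0.0058 (SE 0.026, 95% interval -0.069 to 0.057, limma adjusted p = 0.94). Taking the median exon probe set as the level, it was -0.11 (limma adjusted p = 0.54).

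PPIE carries an RNA recognition motif before its isomerase domain. It gave 8.58, 8.59 and 8.58 in the knockdown arrays, against 8.62, 8.58 and 8.58 in SCR, a difference of -0.0060 (SE 0.027, 95% interval -0.070 to 0.058, limma adjusted p = 0.94). SCR array 1 was the highest of the 6. PPIL1, a single-domain cyclophilin that binds SNW1 in the activated spliceosome, gave 9.85 on all 3 knockdown arrays, against 9.81, 9.88 and 9.88 in SCR, and differed by -0.0091 (95% interval -0.083 to 0.065, limma adjusted p = 0.92). The 3 knockdown values lay inside the SCR range.

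CWC27, a spliceosomal cyclophilin whose isomerase domain is inactive, gave 9.06, 9.17 and 9.20 in the knockdown arrays, against 9.09, 9.09 and 9.08 in SCR. Knockdown array 1 was the lowest of the 6 and arrays 2 and 3 the highest. The difference was 0.06 (95% interval -0.039 to 0.155, limma adjusted p = 0.57), and it was 0.10 without knockdown array 1 and 0.03 without knockdown array 3. PPWD1, which joins WD repeats to an isomerase domain, gave 9.15, 9.21 and 9.16 in the knockdown arrays, against 9.12, 9.16 and 9.16 in SCR, and differed by 0.03 (95% interval -0.046 to 0.096, limma adjusted p = 0.76). Leaving out knockdown array 2 brought PPWD1 to 0.0070, and leaving out SCR array 1 to 0.013.

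The 2 members with long arginine and serine rich tails had positive differences. The PPIG groups met at 1 shared value, and the NKTR groups overlapped. PPIG, also called SR-Cyp, gave 9.70, 9.81 and 9.78 in the knockdown arrays, against 9.59, 9.70 and 9.70 in SCR. The difference was 0.10 (SE 0.045, 95% interval -0.0091 to 0.207, limma adjusted p = 0.36). Without SCR array 1, the lowest of the 6, the difference was 0.06. NKTR, first described as a surface-associated protein of natural killer cells, gave 9.10, 9.10 and 9.04 in the knockdown arrays, against 8.99, 9.04 and 9.12 in SCR. Its difference was 0.03 (95% interval -0.070 to 0.125, limma adjusted p = 0.81), with the highest and the lowest signal both in SCR.

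PPIL4, which has an RNA recognition motif, gave 10.44, 10.56 and 10.50 in the knockdown arrays, against 10.46, 10.57 and 10.54 in SCR. Same-numbered arrays of the PPIL3 knockdown and SCR moved together, and the difference was -0.022 (95% interval -0.130 to 0.086, limma adjusted p = 0.87).

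The differences of PPIE, PPIH, PPIL1, PPIL4 and NKTR each changed sign when some single arrays were left out, which also breaks the pairs of same-numbered arrays. The labels do not say whether the numbers pair the arrays. Within those pairs PPIL4 was lower in the knockdown in 3 of 3 (by -0.016, -0.0044 and -0.046) and PPIG higher in 3 of 3 (by 0.11, 0.11 and 0.08). The share of all clusters with the same sign in 3 of 3 was not computed. With the pairs as a block neither passed (limma adjusted p = 0.74 for PPIL4 and 0.19 for PPIG). PPIE, PPIH, PPIL1 and NKTR had pairs of both signs. Taking the median exon probe set as the level gave -0.05 for PPIL1, -0.07 for PPIL4, 0.05 for NKTR and 0.09 for CWC27, and none of these passed.

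**Figure D2:**
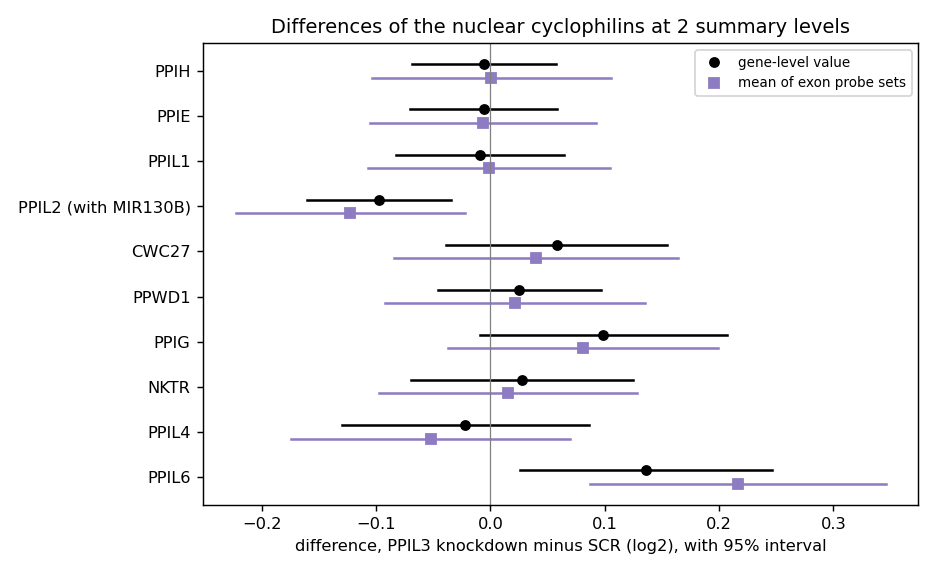
Difference in log2 signal, PPIL3 knockdown minus SCR (horizontal axis), with its 95% limma interval, for the gene-level value (circles) and the mean of the exon probe sets (squares) of each nuclear cyclophilin. The intervals of PPIL2 and PPIL6 exclude 0 at both levels before adjustment, and those of the other 8 members include it.

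PPIL2 has a U-box, a domain of ubiquitin ligases, beside its isomerase domain. Its cluster and all 100 of its probe sets carry the joint annotation MIR130B and PPIL2, and no other cluster lists MIR130B. The annotation therefore assigns no value here to PPIL2 alone or to the microRNA gene alone. Which of the 2 genes each probe set lies in was not examined. In RefSeq (GRCh38.p14) MIR130B, 82 bases long, lies at chr22:21653304-21653385. That is 12.6 kb before PPIL2 at chr22:21666012-21700015, so the 2 genes do not overlap. PPIL2 and YPEL1 share 2480 bases in the same annotation. The 2 mature microRNAs are shown because their gene is named in the joint annotation, with the seed, bases 2 to 8, in capitals. Their levels were not measured apart from PPIL2.
hsa-miR-130b-5p: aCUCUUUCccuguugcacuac
hsa-miR-130b-3p: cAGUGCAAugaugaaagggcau
The 5p product lies at chr22:21653316-21653336 and the 3p product at chr22:21653354-21653375, both on the plus strand. Their seeds differ, so they are not of 1 seed family.

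The joint cluster gave 8.62, 8.63 and 8.59 in the knockdown arrays, against 8.71, 8.72 and 8.71 in SCR. All 3 knockdown values lay below all 3 SCR values. The difference was -0.10 (SE 0.026, 95% interval -0.160 to -0.035, a change of -6.53%), which did not pass over all clusters (limma adjusted p = 0.16). The mean of the exon probe sets gave 8.53, 8.59 and 8.53 in the knockdown arrays, against 8.66, 8.69 and 8.67 in SCR, a difference of -0.12 (SE 0.046, limma adjusted p = 0.19). Taking the median exon probe set as the level, the difference was -0.26 (limma adjusted p = 0.11). YPEL1, whose cluster is separate, differed by -0.058 (limma adjusted p = 0.54) and its groups overlapped.

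Most PPIL2 probe sets had lower means in the knockdown. Among the 90 whose mean signal reached 5, 75 had a difference below 0 and 15 above, with a median of -0.15, beside a median of -0.0037 over all probe sets tested. The exon and junction probe sets had medians of -0.14 and -0.15. The groups did not overlap for 31 of the 90, beside 16.5% of all probe sets tested. Of the 31, 30 were lower in the knockdown, beside 8.25% lower among all. At an unadjusted p under 0.05 there were 21 (23.3%), all lower, beside 4.55% lower among all probe sets tested. Probe sets of 1 gene share their RNA and are not replicates.

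Junction probe set JUC22000612.hg.1 had the largest negative difference of PPIL2. It gave 9.17, 9.06 and 9.21 in the knockdown arrays, against 9.55, 9.61 and 9.73 in SCR. The groups did not overlap, and the difference was -0.48 (SE 0.089, 95% interval -0.69 to -0.27, limma adjusted p = 0.24 over 605086 probe sets). Junction probe set JUC22000588.hg.1 gave 9.21, 9.25 and 9.26 in the knockdown arrays, against 9.61, 9.81 and 9.52 in SCR, a difference of -0.41. The largest positive difference, 0.36, was that of JUC22000581.hg.1, with 6.31, 5.95 and 6.58 in the knockdown arrays, against 5.77, 6.10 and 5.90 in SCR, and its groups overlapped.

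**Figure D3:**
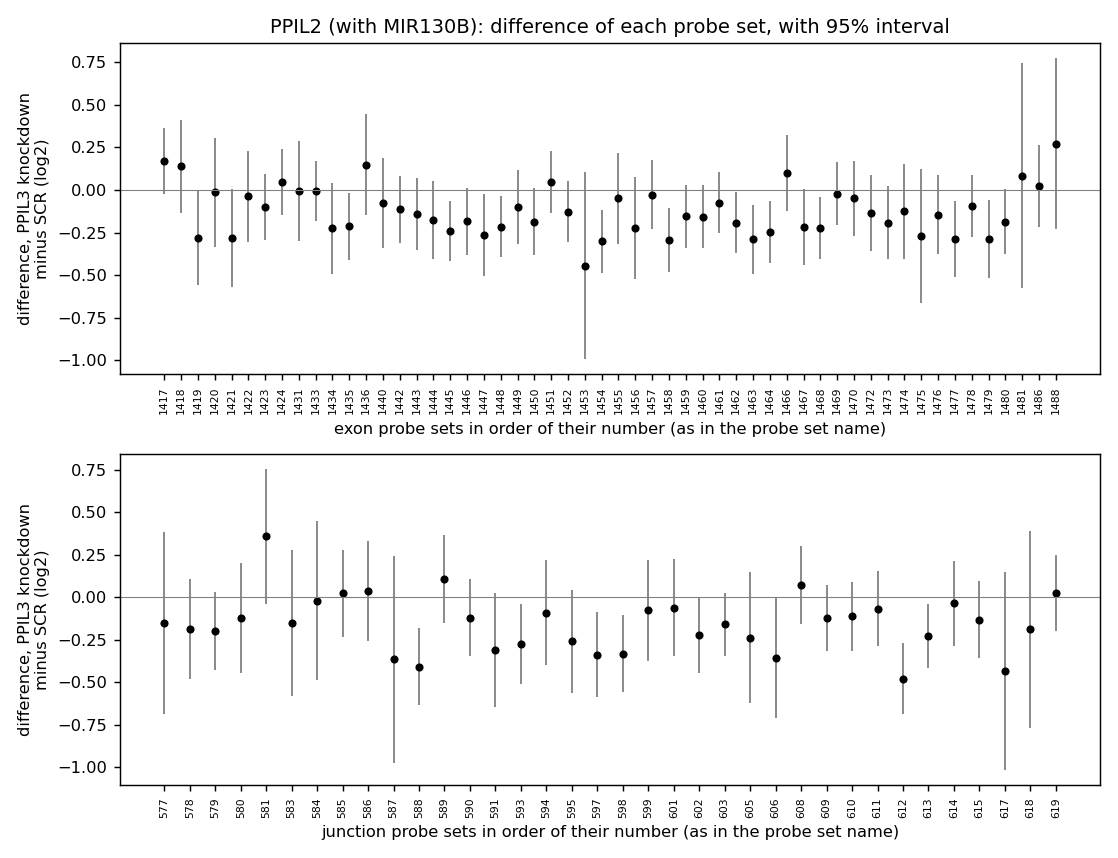
Difference in log2 signal, PPIL3 knockdown minus SCR (vertical axis), with its 95% limma interval, for the 54 exon (top) and 36 junction (bottom) probe sets of PPIL2 with a mean signal of at least 5, in the order of their numbers. Most points lie below 0, and none passed the test over all probe sets.

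By the order of the probe set numbers, the first 11 tested PPIL2 exon probe sets had a median difference of -0.014 and none had all knockdown values below all SCR values. The other 43 had a median of -0.16, and 20 of them did, beside the 8.25% of all probe sets. This split was made after the values were seen and is a description only. Positions of the probe sets were not used here, so the order is that of the numbers in their names.

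PPIL6 is a cyclophilin for which RefSeq lists RSPH12, a radial spoke head name used for components of cilia and sperm flagella, among the synonyms. Arrays of RNA do not show where its protein lies, so its place among nuclear cyclophilins was not examined. At gene level it gave 6.47, 6.59 and 6.61 in the knockdown arrays, against 6.47, 6.38 and 6.41 in SCR. Knockdown array 1 and SCR array 1 were level, and the other 2 knockdown arrays were the highest. The difference was 0.14 (SE 0.046, 95% interval 0.026 to 0.246, a change of 9.88%), which did not pass over all clusters (limma adjusted p = 0.24).

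The PPIL6 difference depended on how its probe sets were combined. The mean of its exon probe sets gave 7.42, 7.59 and 7.60 in the knockdown arrays, against 7.39, 7.27 and 7.30 in SCR. At this level the groups did not overlap, and the difference was 0.22 (SE 0.059, 95% interval 0.087 to 0.346, limma adjusted p = 0.076 over 18640 genes). Taking the median exon probe set as the level, the difference was 0.50 and passed the test (limma adjusted p = 0.027). Over the settings tried the adjusted p ran from 0.027 to 0.57.

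PPIL6 had the widest spread of differences among the 10. Of its 37 probe sets 26 had a mean signal of at least 5, and 13 of those 26 (50.0%) had an unadjusted p under 0.05, beside 9.78% of all probe sets tested. Of the 13, 12 were higher in the knockdown, which is 46.2% of the 26, beside 5.23% higher among all probe sets tested. None passed the adjusted test. The median difference was 0.28, with 0.25 for exon and 0.46 for junction probe sets.

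Junction probe set JUC06012222.hg.1 had the largest difference of any nuclear cyclophilin probe set. It gave 5.98, 6.26 and 6.40 in the knockdown arrays, against 5.06, 5.09 and 5.19 in SCR. The groups were well apart, and the difference was 1.10 (SE 0.120, 95% interval 0.82 to 1.38, limma adjusted p = 0.089). It was the 1 tested member probe set that differed by more than 1. Its SCR values lay near the mean signal of 5 needed for testing, and it was not tested at a minimum of 6.

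Junction probe set JUC06012217.hg.1 gave 8.00, 8.21 and 8.12 in the knockdown arrays, against 7.41, 7.03 and 7.21 in SCR, a difference of 0.89 (95% interval 0.62 to 1.17, limma adjusted p = 0.14). Its groups did not overlap, and it passed with a trended and robust variance prior in limma (adjusted p = 0.039). Exon probe set PSR06024857.hg.1 gave 7.94, 8.06 and 8.26 in the knockdown arrays, against 7.51, 7.19 and 7.27 in SCR, a difference of 0.76 (limma adjusted p = 0.19). The largest negative difference of PPIL6, -0.55, was that of JUC06012223.hg.1, with 5.37, 4.78 and 4.94 in the knockdown arrays, against 5.70, 5.57 and 5.46 in SCR. This junction probe set had all its knockdown values below all its SCR values, the opposite of the junction numbered just before it. JUC06012223.hg.1 did not pass over all probe sets (limma adjusted p = 0.37). Its knockdown values of 4.78 and 4.94 lay under the minimum of 5 set for the mean signal. Like JUC06012222.hg.1, it was not tested at a minimum of 6.

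**Figure D4:**
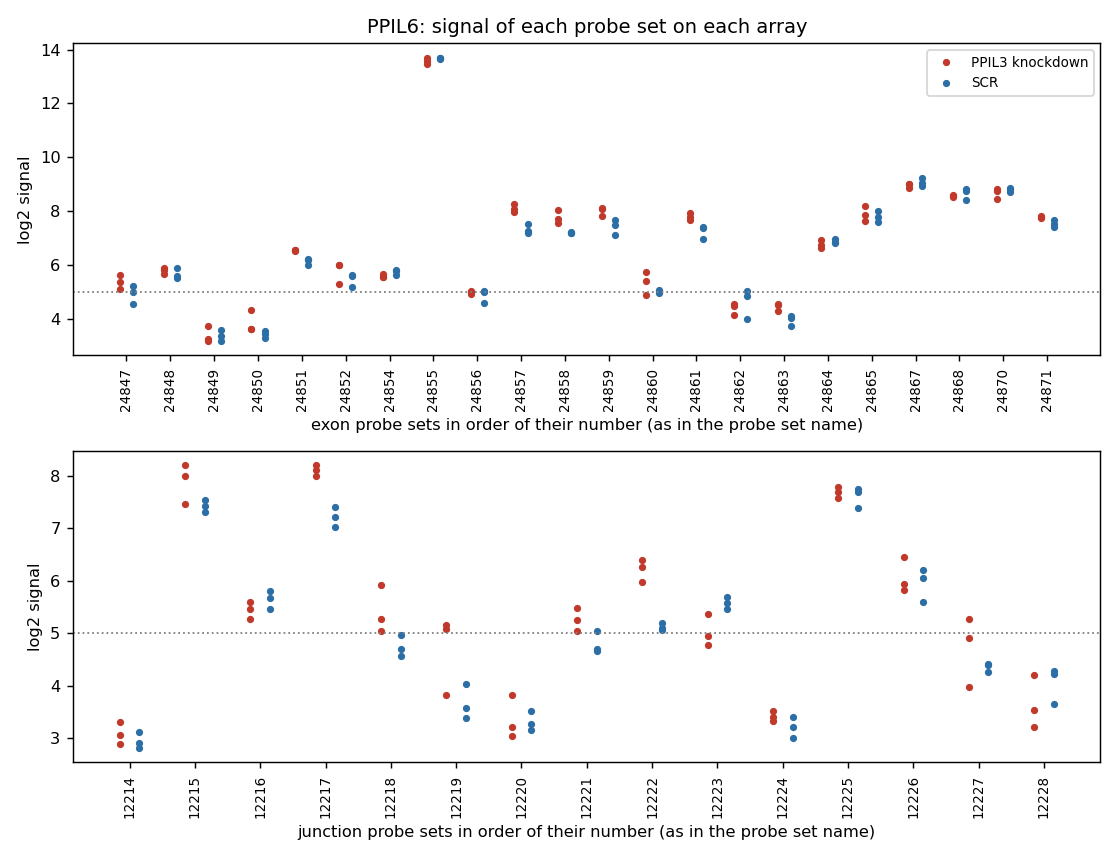
Log2 signal (vertical axis) of the 22 exon (top) and 15 junction (bottom) probe sets of PPIL6 in the order of their numbers, with the PPIL3 knockdown arrays left of the SCR arrays and a dotted line at the minimum mean signal of 5. Knockdown points stand above SCR points in the middle run of exon probe sets and at junctions 12217 and 12222, and below them at junction 12223.

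In the order of their numbers, the 5 PPIL6 exon probe sets from PSR06024857.hg.1 to PSR06024861.hg.1 had differences between 0.32 and 0.76, and the groups did not overlap for 4 of them, all higher in the knockdown, beside 8.25% higher among all probe sets. The 6 tested after that run, from PSR06024864.hg.1 to PSR06024871.hg.1, had differences between -0.12 and 0.25, and the groups did not overlap for 1 of them, the last, which was higher in the knockdown. The 6 tested before the run lay between -0.16 and 0.44, and 1 of them, PSR06024851.hg.1, had all knockdown values above all SCR values. The runs were chosen after the values were seen and carry no test. Exon probe set PSR06024855.hg.1, the brightest of PPIL6, had means of 13.56 in the knockdown and 13.68 in SCR, a difference of -0.11. SMPD2, a neutral sphingomyelinase gene that shares 448 bases with PPIL6 in RefSeq, differed by -0.14 (limma adjusted p = 0.18), the other direction. How far overlapping transcripts enter these probe sets was not tested.

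Over all 10 members, 445 of the 492 probe sets had a mean signal of at least 5, and the limma count at an adjusted p under 0.05 was 0, beside 0.00446% of all probe sets tested. At an unadjusted p under 0.05 there were 49 (11.0%), 21 higher and 28 lower, near the 9.78% of all probe sets tested. PPIL6 held 13 of them and PPIL2 held 21, and the other 8 members held 15 of 329 (4.56%). Of the 445, 9 differed by more than 0.5 in either direction, and the share over all probe sets was not computed.

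**Figure D5:**
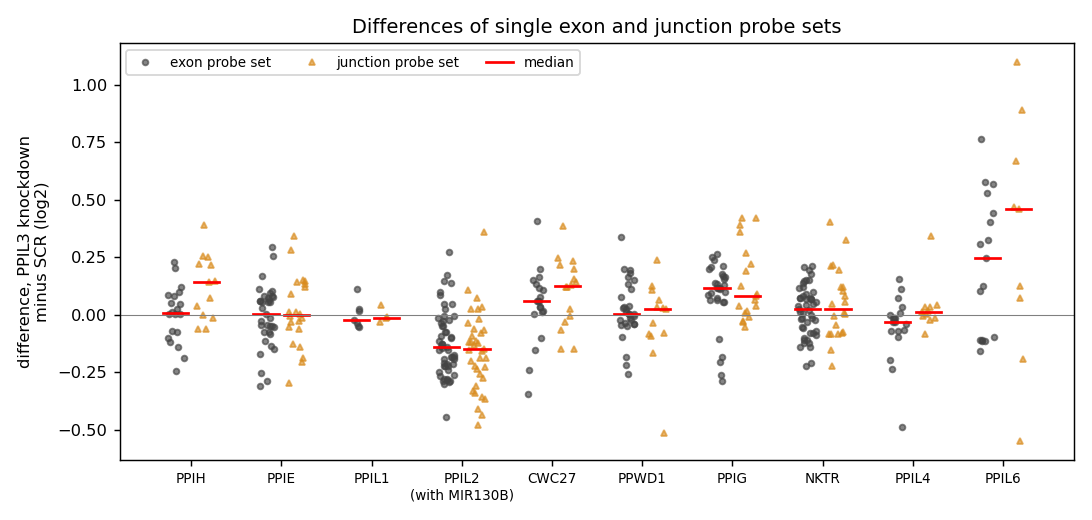
Difference in log2 signal, PPIL3 knockdown minus SCR (vertical axis), of every exon (circles, left) and junction (triangles, right) probe set with a mean signal of at least 5, for each nuclear cyclophilin, with a red bar at each median. PPIL6 has the widest spread, up to 1.10, and the PPIL2 medians lie at -0.14 and -0.15.

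Among the other 8 members the knockdown and SCR values overlapped at most of the largest differences. PPIG had 40 of 49 probe sets above 0, and its 5 at an unadjusted p under 0.05 (10.2%) were all higher, beside 9.78% of all probe sets in either direction and 5.23% higher. Its JUC02007847.hg.1 differed by 0.42, with 6.22, 6.48 and 6.28 in the knockdown arrays, against 5.59, 6.27 and 5.86 in SCR, and its PSR02014724.hg.1 by -0.29. Both had overlapping groups. PPIH had 4 of 33 (12.1%) at an unadjusted p under 0.05, 3 higher and 1 lower, near the share of all probe sets.

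The PPIH junction probe set JUC01004301.hg.1 gave 8.86, 9.30 and 9.27 in the knockdown arrays, against 8.83, 8.70 and 8.73 in SCR. Its groups did not overlap, with knockdown array 1 just above SCR, and the difference was 0.39 (limma adjusted p = 0.42). PPIH exon probe set PSR01008337.hg.1 differed by -0.25. In PPWD1, JUC05001842.hg.1 gave 5.97, 6.06 and 6.11 in the knockdown arrays, against 6.61, 6.22 and 6.85 in SCR, a difference of -0.51 (limma adjusted p = 0.39) between groups that did not overlap. The largest positive difference of PPWD1 was 0.34, at PSR05003450.hg.1.

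PPIL4 had its largest differences at PSR06027683.hg.1 (-0.49) and JUC06013810.hg.1 (0.34). CWC27 had them at PSR05003398.hg.1 (0.41) and the next exon probe set in number, PSR05003397.hg.1 (-0.34). PPIE had them at JUC01004048.hg.1 (0.34) and PSR01007752.hg.1 (-0.31), and NKTR at JUC03002357.hg.1 (0.40) and JUC03002361.hg.1 (-0.22). Knockdown and SCR values overlapped at each of these 8. Over all 10 members, leaving out single arrays moved 12 of the 20 largest positive and negative differences by over 1.5 times. The NKTR probe set JUC03002357.hg.1 ran from 0.16 without knockdown array 3 to 0.73 without knockdown array 1. The CWC27 probe set PSR05003398.hg.1 ran from 0.21 to 0.65 and the PPWD1 probe set PSR05003450.hg.1 from 0.15 to 0.54. The PPIE probe sets JUC01004048.hg.1 and PSR01007752.hg.1 ran from 0.18 to 0.47 and from -0.53 to -0.14. Only the PPIH probe set PSR01008337.hg.1 changed sign (-0.39 to 0.03), and the extremes of PPIL6 kept within 1.5 times. With all arrays in, PPIL1 had the narrowest range, its 11 tested probe sets, the fewest of any member, lying between -0.05 and 0.11. With single arrays left out, its extremes PSR06020012.hg.1 and PSR06020010.hg.1 ran from 0.0023 to 0.20 and from -0.095 to -0.012. NKTR, CWC27 and PPIL1 had 0 of 70, 0 of 36 and 0 of 11 at an unadjusted p under 0.05 in the limma fit.

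The brightest exon probe set gave little difference in most members. It lay at -0.18 for PPIL2, whose tested exon probe sets had a median of -0.14. The difference was -0.11 for PPIL6 and 0.07 for PPIE, and the other 7 lay between -0.022 and 0.057. The dimmest exon probe sets of NKTR, CWC27, PPIG, PPIL2, PPIL6 and PPWD1 had knockdown means from 2.73 to 3.88 and SCR means from 2.73 to 3.95, under the minimum of 5, and were not tested.

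Whether an exon or junction moved apart from the rest of its gene was asked with the splicing index, the log2 signal of a probe set minus the mean of the exon probe sets of the same gene on that array. In the limma fit 0 of 445 member probe sets passed, beside 0% of all 599323 tested. At an unadjusted p under 0.05 there were 42 (9.44%), beside 7.47% of all. Of these, 13 belonged to PPIL6 (50.0% of its 26), 6 higher and 7 lower, and 8 to PPIL2 (8.89% of its 90). The index of JUC06012222.hg.1 differed by 0.88 (limma adjusted p = 0.39), the smallest adjusted p among the members, and that of JUC06012223.hg.1 by -0.76 (limma adjusted p = 0.56). The 8 of PPIL2 were 5 higher and 3 lower. The exon mean that the index subtracts itself differed by 0.22 in PPIL6 and -0.12 in PPIL2. A lower index is therefore not in itself a lower signal. In the signal fit (limma, unadjusted p under 0.05) PPIL6 had 12 probe sets higher and 1 lower. PPIL2 had 0 higher and 21 lower in that fit.

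Genes for spliceosomal and other nuclear proteins that bind or lie next to these cyclophilins also held no call. Of a list of 33, among them PRPF4, PRPF3, SNW1, PRPF8 and CDC40, 32 were measured and CRNKL1 was not analysed here. In the limma fit 0 of 32 were called in either direction, and 5 (15.6%) had an unadjusted p under 0.05, 3 higher and 2 lower, near the 15.3% of all clusters. The median difference was 0.012. The kinase CLK1, which phosphorylates SR proteins, had the largest difference, with 8.11, 8.34 and 8.03 in the knockdown arrays, against 8.42, 8.50 and 8.47 in SCR (difference -0.30, SE 0.078, limma adjusted p = 0.15). WBP4, a spliceosomal WW-domain protein, gave 8.01, 8.14 and 8.10 in the knockdown arrays, against 7.89, 7.94 and 7.90 in SCR (difference 0.18, SE 0.041, limma adjusted p = 0.13). The groups did not overlap for either gene. They also did not overlap for PRPF4, SNW1, BCAS2, AQR and SNRPB, all higher in the knockdown. The same held for PRPF31, SNRNP200, XAB2, SF3A2 and PRCC, all lower. Groups did not overlap for 20.4% of all clusters.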

How the data were processed

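The 12 deposited samples are 6 arrays summarized in 2 ways, since the 2995 rows that both tables share were identical between same-named samples (at most 15 otherwise). The deposited log2 values were made by the authors with RMA in Affymetrix Expression Console, per the submitters' processing notes, as a value per transcript cluster and a value per probe set. RMA equalizes the arrays and hides any shift common to most transcripts. For the probe sets a genome build was not given in the sources used here. The number of arrays limits the precision, and 0 columns of other samples were present.

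Groups came from sample titles. Features with a gene symbol and a mean of at least 5 were fitted with limma 3.58.1 (lmFit and eBayes, two-sided, Benjamini-Hochberg over all features fitted, threshold 0.05) in R 4.3.3, with the package data.table (1.17.8). The splicing index used genes with at least 3 exon probe sets. The fits were tested on simulated data. Figures were drawn with matplotlib 3.10.9 in Python 3.11.15. Positions and microRNA sequences are from RefSeq (GRCh38.p14).

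The members and gene lists were chosen with earlier results of these data known. Named probe sets are the largest positive and negative difference of each member and its brightest and dimmest exon probe set. Others (JUC22000588.hg.1, JUC06012217.hg.1, PSR06024857.hg.1, the runs of exons, YPEL1 and SMPD2) were chosen after their values were seen. Partner genes named are the 2 with the largest absolute difference. The labels do not say whether the replicate numbers pair the samples. Deviations from group means correlated at 0.353, 0.152 and 0.159 between same-numbered arrays, although for number 2 another array reached 0.210. The main fits did not use the pairs. Alternatives were a replicate block, no filter or a minimum of 6, quantile normalization, eBayes with trend and robust, features with 1 symbol only, exon means or medians as gene level, and leaving out each array. One marker gene of the list for other cell types is not reported here.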

Additional observations from a re-analysis of the deposited data

How the results depend on the processing

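Of the nuclear cyclophilins, only PPIL6 passed at gene level in any setting tried, with the median exon probe set as its level (difference 0.495, limma adjusted p = 0.027). Partner genes, for which exon means and medians were not run, had 0 calls in 13 settings, and the splicing index of members, for which quantile normalization was not run, had 0 in 13. Among member probe sets, 1 passed in the setting with trend and robust moderation (JUC06012217.hg.1). With the replicate number as a block, for a possible pairing, 2 clusters of all passed, against 127 without it. In that setting 0 probe sets of all and 0 members passed, and PPIL3 had a limma adjusted p of 0.058. Quantile normalization gave 204 clusters, and leaving out 1 array gave 1 to 20. Leaving out single arrays gave -0.0021 to 0.0605 for NKTR, -0.0126 to 0.0072 for PPIE, -0.0116 to 0.0059 for PPIH, -0.0333 to 0.0035 for PPIL1, -0.055 to 0.0080 for PPIL4 and -0.393 to 0.030 for PSR01008337.hg.1. Signs turned for NKTR (-0.0021) and PPIE (0.0072) without SCR array 1, for PPIH without knockdown array 1 (0.0059) and with exon means (0.00078), for PPIL1 without SCR array 2 (0.0024) or 3 (0.0035), for PPIL4 without knockdown array 1 (0.0080) or SCR array 2 (0.00065), and for PSR01008337.hg.1 without knockdown array 1 (0.030). The cause was not tested. With 3 arrays a group, the median of the 95% interval's reach on either side was 0.249 for a member probe set.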
